A study of Mus musculus with 12 samples.

Results

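The genes described here take part in the assembly of antibody genes or encode the surrogate light chain of developing B cells, together with pieces of the kappa light chain itself. They are Rag2, Dntt, Igll1, Vpreb1, Igkc and the kappa variable segments Igkv1-135, Igkv8-19, Igkv5-43, Igkv6-20 and Igkv8-30, which makes 10 of the 18820 genes that a probe set with a single annotated symbol could measure. They were picked on their values on these arrays, so their levels and differences are given as a description, with no test. All 10 were found by symbol, each had 1 probe set, and none lay below the filter on dim genes used as an alternative.

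The cells were primary B lymphoma cultures from l-MYC;B1-8f mice of strain C57BL/6J x BALB/c, which carry a MYC transgene and a pre-assembled heavy chain variable region that Cre can remove. Every culture had been transduced with TAT-Cre, a cell-permeable form of the recombinase, so the BCR-positive cells had met Cre too and shared their culture for 4 days with the cells that had lost the B-cell receptor (BCR). Lymphomas 2564, 2646 and 2676 each gave 1 array to each of 4 groups. These were BCR-negative cells with CHIR99021, an inhibitor of the kinase GSK3, BCR-positive cells with CHIR99021, untreated BCR-negative cells and untreated BCR-positive cells. The sources used here do not give the age of the mice, the clonality of the lymphomas or the light chain each one used. All values are log2 expression values from Mouse Gene 1.1 ST arrays of Affymetrix, and each step of 1 on this scale is a doubling.

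Antibody genes are assembled from separate segments. The Rag1 and Rag2 proteins cut the DNA beside the chosen segments, terminal transferase (Dntt) can add untemplated bases before the ends are joined, and the products of Igll1 and Vpreb1 form the surrogate light chain, which pairs with a new heavy chain before any light chain exists. In mice the kappa locus is usually rearranged next, by joining a variable segment (Igkv) to a joining segment ahead of the constant exon (Igkc). An unrearranged variable segment can give germline transcripts, and a B cell whose receptor fails can reopen light chain rearrangement, a process called receptor editing. An array probe set reports the amount of a transcript and not the structure of the locus, so rearrangement itself was not measured.

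The RefSeq promoter table (assembly GRCm38.p6, 300 bases around the annotated start of each gene) held 4 of the 10 genes, the ones of the recombination and surrogate light chain group. They are shown because in lymphomas 2646 and 2676 all 4 genes read higher in the BCR-negative population of both cultures. E-boxes (CANNTG), the letters bound by E proteins such as those of Tcf3 and Tcf12, stand in capitals.
Rag2 (chr2:101624462-101624761, plus strand): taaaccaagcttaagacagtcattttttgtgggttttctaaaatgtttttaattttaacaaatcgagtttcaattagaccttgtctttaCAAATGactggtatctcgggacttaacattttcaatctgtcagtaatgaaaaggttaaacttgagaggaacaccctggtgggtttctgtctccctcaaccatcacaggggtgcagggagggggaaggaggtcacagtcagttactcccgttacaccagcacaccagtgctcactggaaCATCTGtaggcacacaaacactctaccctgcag
Dntt (chr19:41029025-41029324, plus strand): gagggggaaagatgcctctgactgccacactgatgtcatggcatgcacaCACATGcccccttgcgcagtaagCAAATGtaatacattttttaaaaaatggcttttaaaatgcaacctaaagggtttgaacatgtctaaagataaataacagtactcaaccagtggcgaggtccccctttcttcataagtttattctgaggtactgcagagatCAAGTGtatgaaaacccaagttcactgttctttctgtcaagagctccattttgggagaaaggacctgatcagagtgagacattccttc
Igll1 (chr16:16863936-16864235, minus strand): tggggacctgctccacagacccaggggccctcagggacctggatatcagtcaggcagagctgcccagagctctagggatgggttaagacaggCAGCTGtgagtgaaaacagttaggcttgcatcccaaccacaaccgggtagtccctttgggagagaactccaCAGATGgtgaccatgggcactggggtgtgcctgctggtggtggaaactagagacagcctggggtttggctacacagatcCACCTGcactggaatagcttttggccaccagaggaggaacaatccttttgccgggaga
Vpreb1 (chr16:16869206-16869505, minus strand): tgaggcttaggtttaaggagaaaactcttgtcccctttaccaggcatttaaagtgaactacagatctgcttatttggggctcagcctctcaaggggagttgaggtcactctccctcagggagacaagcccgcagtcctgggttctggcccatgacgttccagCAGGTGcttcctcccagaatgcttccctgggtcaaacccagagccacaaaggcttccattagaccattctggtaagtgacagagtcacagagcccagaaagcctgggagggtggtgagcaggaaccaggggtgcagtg

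The search found 2 E-boxes in the Rag2 promoter, 3 in that of Dntt, 3 in that of Igll1 and 1 in that of Vpreb1, and 72.3% of the 32851 promoters in the table hold at least 1. The form CAGGTG, on either strand and always also an E-box, occurred once in Igll1 and once in Vpreb1 and is present in 20.2% of all promoters. Neither the FOXO letters GTAAACA (3.65% of promoters) nor the octamer ATTTGCAT (1.74%) was found in these 4 windows on either strand. The 6 kappa genes lie on chromosome 6, and no promoter of theirs was used here.

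The sort was checked with Ighv1-72, the annotated gene of the B1-8 heavy chain variable region that Cre deletes. In untreated cultures its signal in BCR-negative cells was 31.8%, 38.2% and 10.3% of that in BCR-positive cells of lymphomas 2564, 2646 and 2676. With CHIR99021 it was 15.0%, 18.2% and 7.92%. It fell by 2.11 ± 0.331 on the log2 scale in untreated cultures (limma adjusted p = 0.0176) and fell by 2.95 with CHIR99021 (limma adjusted p = 0.0498). The call was made in 19 of 23 alternatives in untreated cultures and in 4 of 23 with CHIR99021, where the mean difference stayed between -3.20 and -2.60. The array medians lay between 4.71 and 4.92. In sorted bulk cells, a change in the share of cells that express a gene and a change in RNA per cell cannot be told apart. The labels show 1 array per lymphoma and group, so SE and p-values measure the spread among 3 lymphomas.

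Rag2, the partner of Rag1 in the recombinase, was higher in BCR-negative cells than in BCR-positive cells in all 6 pairs of arrays, and lower with CHIR99021 than without in all 6. In untreated cultures of lymphomas 2564, 2646 and 2676 it read 7.48, 9.43 and 7.53 in BCR-negative cells, against 6.70, 8.39 and 5.75 in BCR-positive cells. In CHIR99021 cultures the values were 4.95, 8.44 and 6.17 in BCR-negative cells, against 4.01, 7.08 and 4.21 in BCR-positive cells. The ranges of the groups overlapped, lymphoma 2646 stood above the other two in every group, and the order appeared within each lymphoma.

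Within lymphomas 2564, 2646 and 2676, Rag2 in untreated BCR-negative cells was 1.72-fold, 2.06-fold and 3.44-fold that in untreated BCR-positive cells. With CHIR99021 the folds were 1.92, 2.58 and 3.89. The treated BCR-positive levels of lymphomas 2564 and 2676, 4.01 and 4.21, lie among those of the T cell markers (3.60 to 5.18). So does the treated BCR-negative level of lymphoma 2564, 4.95. These levels may not be above background, so the ratios that use them describe the signals only. The mean log2 difference by BCR status was 1.20 ± 0.347 (limma SE, n = 3 lymphomas) without and 1.42 ± 0.347 with the inhibitor. The interaction (the difference with the inhibitor minus that without) was 0.22 ± 0.490. That is smaller than its pooled error, while the values in lymphomas 2564, 2646 and 2676 were all positive (0.16, 0.33 and 0.18, SD 0.0920). In both cultures lymphoma 2676 had the widest Rag2 gap and lymphoma 2564 the narrowest.

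CHIR99021 went with less Rag2 in both populations. In BCR-negative cells the log2 difference between treated and untreated cells was -2.53, -0.98 and -1.37 in lymphomas 2564, 2646 and 2676, a mean of -1.63 ± 0.347. In BCR-positive cells it was -2.69, -1.31 and -1.55, a mean of -1.85 ± 0.347. The level with CHIR99021 was 0.174-fold to 0.506-fold the untreated level in BCR-negative cells and 0.155-fold to 0.403-fold in BCR-positive cells. Here lymphoma 2564 moved furthest, where it had moved least by BCR status. Its treated levels in both populations may not be above background, so its folds by treatment describe the signals only.

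Rag2 averaged 6.52 ± 1.77 in BCR-negative cells with CHIR99021 (SD, n = 3 lymphomas) and 5.10 ± 1.72 in BCR-positive cells with CHIR99021. Without treatment it averaged 8.15 ± 1.11 in the BCR-negative and 6.95 ± 1.33 in the BCR-positive population. Untreated BCR-negative cells were the highest group and BCR-positive cells with CHIR99021 the lowest in each of the 3 lymphomas. The groups between them had no fixed order: BCR-negative cells with CHIR99021 stood below untreated BCR-positive cells in lymphoma 2564 (4.95 against 6.70) and above them in lymphoma 2676 (6.17 against 5.75), and in lymphoma 2646 they read 8.44 against 8.39. Lymphoma accounted for 50.8% of the sum of squares of Rag2 and group for 43.9%, whereas over all genes the shares were 76.7% and 14.3%. Rag1 shares its probe set with a second annotated symbol, so no value is given for it.

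Dntt, the enzyme that adds untemplated bases at segment joins, differed by BCR status almost entirely in 1 lymphoma. In lymphoma 2646 it read 8.38 in untreated BCR-negative cells, against 3.53 in their BCR-positive partners, and with CHIR99021 it read 8.23 in BCR-negative cells and 3.96 in BCR-positive cells. The 2 BCR-positive levels lie among those of the NK cell markers Ncr1 (3.405 to 3.70) and Prf1 (3.84 to 4.11), so they may not be above background and no fold is given. In lymphomas 2564 and 2676 it read 3.39 and 3.78 in untreated BCR-negative cells, against 3.25 and 3.26 in untreated BCR-positive cells. Under treatment these 2 lymphomas read 3.39 and 3.46 in BCR-negative cells, against 3.22 and 3.33 in BCR-positive cells. Both BCR-negative arrays of lymphoma 2646 therefore stood more than 4 log2 units above each of the other 10 arrays.

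The mean log2 difference of Dntt by BCR status was 1.84 ± 0.932 in untreated cultures and 1.52 ± 0.932 with CHIR99021. Without lymphoma 2646 these means were 0.33 and 0.15. By treatment, the mean Dntt difference was -0.16 ± 0.932 in BCR-negative cells and 0.16 ± 0.932 in BCR-positive cells. Both were smaller than the pooled error, and the SD among the 3 lymphomas was 0.159 and 0.240. In the BCR-negative cells of lymphoma 2646 the difference was -0.15, so the high Dntt level was present with and without the inhibitor, while the Rag2 difference in the same pair of arrays was -0.98.

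**Figure D1:**
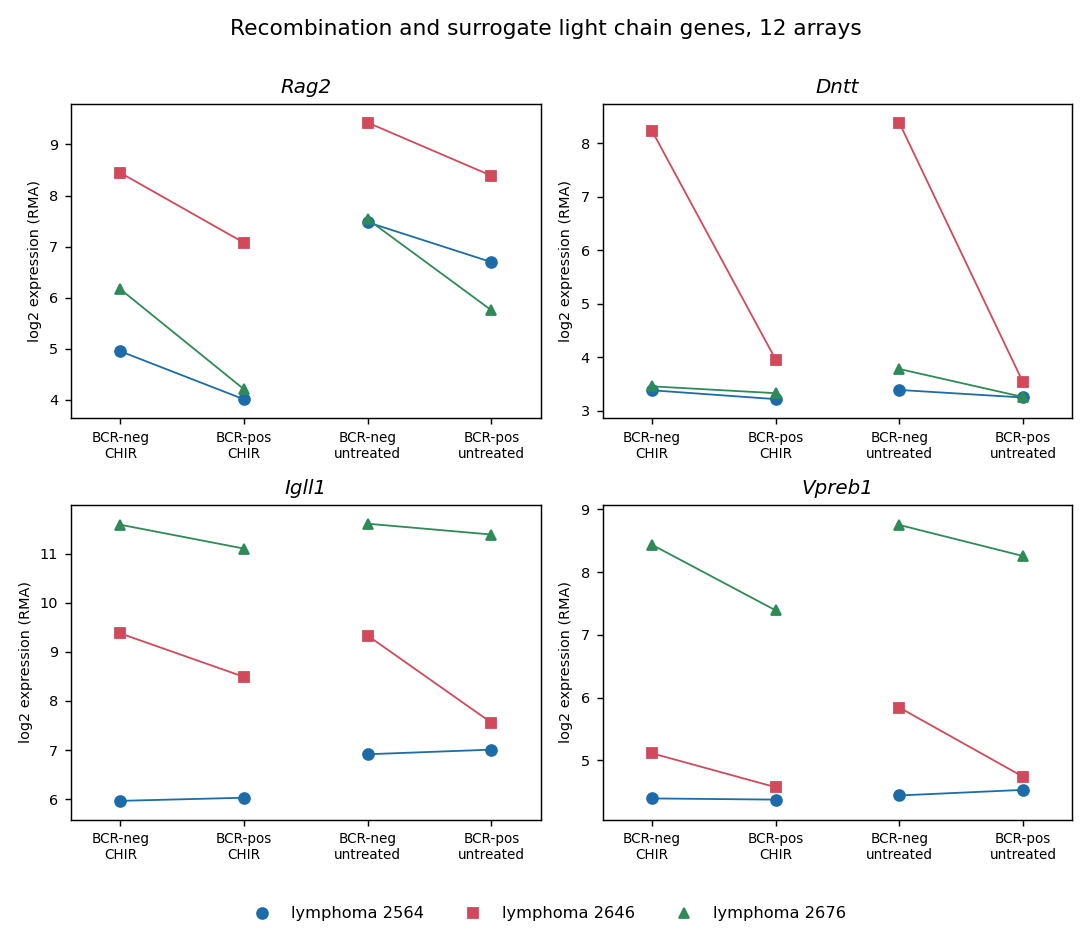
Log2 expression of Rag2, Dntt, Igll1 and Vpreb1 on each of the 12 arrays, by sorted population and treatment, with a line joining the BCR-negative and BCR-positive cells of 1 culture. Every Rag2 line slopes down to the BCR-positive cells, the steep Dntt lines belong to lymphoma 2646 (8.38 against 3.53 untreated), and Igll1 and Vpreb1 are ordered mainly by lymphoma.

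The surrogate light chain genes followed the lymphoma more than the group. Igll1, which encodes lambda 5, read 6.91, 9.33 and 11.61 in untreated BCR-negative cells of lymphomas 2564, 2646 and 2676, against 7.01, 7.56 and 11.39 in untreated BCR-positive cells. Under CHIR99021 the levels were 5.96, 9.38 and 11.59 in BCR-negative cells, against 6.03, 8.49 and 11.10 in BCR-positive cells. The 4 arrays of lymphoma 2676 lay between 11.10 and 11.61, those of lymphoma 2564 were at or below 7.01, and lymphoma 2646 lay between them without overlap.

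Vpreb1, the second component of the surrogate light chain, kept the order of the lymphomas. It read 4.44, 5.84 and 8.75 in untreated BCR-negative cells, against 4.53, 4.74 and 8.26 in untreated BCR-positive cells. Under CHIR99021 the values were 4.39, 5.11 and 8.44 in BCR-negative cells, against 4.37, 4.57 and 7.39 in BCR-positive cells. Lymphoma accounted for 93.7% of the sum of squares of Igll1 and 94.3% of that of Vpreb1, and Vpreb1 in lymphoma 2564 stayed between 4.37 and 4.53 in all of its 4 arrays. These levels, and those of lymphoma 2646 other than 5.84, lie among those of the T cell markers (3.60 to 5.18). They may not be above background, so Vpreb1 differences that use them describe the signals only.

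By BCR status, both genes were higher in BCR-negative cells of lymphomas 2646 and 2676 in either culture. For Igll1 the log2 differences in untreated cultures of lymphomas 2564, 2646 and 2676 were -0.09, 1.77 and 0.22 (mean 0.63 ± 0.400), and with CHIR99021 they were -0.06, 0.89 and 0.49 (mean 0.44 ± 0.400). For Vpreb1 they were -0.09, 1.10 and 0.50 (mean 0.50 ± 0.231) in untreated cultures, and 0.02, 0.54 and 1.05 (mean 0.54 ± 0.231) with CHIR99021. The differences in lymphoma 2564 were close to 0. Those of Vpreb1 in lymphomas 2564 and 2646 use levels that may not be above background. Without lymphoma 2646, the untreated means were 0.06 for Igll1 and 0.20 for Vpreb1.

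CHIR99021 had no common direction for Igll1. Its log2 differences in BCR-negative cells were -0.95, 0.05 and -0.02, and in BCR-positive cells they were -0.98, 0.93 and -0.29. Vpreb1 was lower with CHIR99021 in all 6 pairs, with differences of -0.05, -0.73 and -0.32 in BCR-negative cells (mean -0.36 ± 0.231) and of -0.16, -0.17 and -0.87 in BCR-positive cells (mean -0.40 ± 0.231). The smallest of these, in BCR-negative cells of lymphoma 2564, was 0.02 with array medians subtracted. In lymphoma 2564 the Igll1 level with CHIR99021 was 0.518-fold the untreated level in BCR-negative cells and 0.507-fold in BCR-positive cells.

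The signal of the kappa constant gene Igkc, part of every kappa light chain transcript, did not follow Rag2. Its closest gene over the arrays was the variable segment Igkv4-55 (r = 0.970 after subtraction of lymphoma means). Whether the Igkc probe set also takes signal from variable segments was not tested, so it may not stand for all kappa transcripts. In untreated cultures of lymphomas 2564, 2646 and 2676 it read 6.38, 7.54 and 7.23 in BCR-negative cells, against 6.82, 8.55 and 6.99 in BCR-positive cells. The CHIR99021 cultures gave 6.71, 8.19 and 7.43 in BCR-negative cells, against 6.95, 8.73 and 6.63 in BCR-positive cells. It was lower in BCR-negative cells of lymphomas 2564 and 2646 and higher in those of lymphoma 2676, in both cultures.

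The log2 difference of Igkc by BCR status had a mean of -0.40 ± 0.267 in untreated cultures, with -0.44, -1.004 and 0.24 in the 3 lymphomas. With CHIR99021 it was -0.24, -0.55 and 0.79, and the opposed values gave a mean of 0.00 ± 0.267. Without lymphoma 2676 the means were -0.72 and -0.39. By treatment, Igkc was higher with CHIR99021 in the BCR-negative cells of all 3 lymphomas (0.33, 0.64 and 0.19, mean 0.39 ± 0.267), and in BCR-positive cells the differences were 0.13, 0.19 and -0.36.

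The 5 variable segments had levels that differed from lymphoma to lymphoma. Igkv1-135 read 7.14, 11.66 and 8.54 in untreated BCR-negative cells of lymphomas 2564, 2646 and 2676, against 6.80, 11.98 and 6.50 in untreated BCR-positive cells. With the inhibitor it read 7.19, 11.93 and 8.30 in BCR-negative cells, against 6.98, 12.08 and 6.58 in BCR-positive cells. All 4 arrays of lymphoma 2646 stood above the other 8, and the mean of its arrays exceeded that of the next lymphoma by 4.43.

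Igkv5-43 had the same high lymphoma. It read 3.39, 8.00 and 5.36 in untreated BCR-negative cells, against 3.57, 8.41 and 3.69 in untreated BCR-positive cells. In the treated cultures it read 3.27, 8.15 and 4.76 in BCR-negative cells, against 3.29, 8.62 and 3.91 in BCR-positive cells. All 4 arrays of lymphoma 2646 again stood above the other 8, by 3.86 over the next lymphoma on the mean of 4 arrays. In each culture the gap to lymphoma 2676 was narrower among the BCR-negative arrays. Lymphoma accounted for 96.3% of the sum of squares of this segment and 93.9% of that of Igkv1-135.

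The other 3 segments had their highest values in the BCR-negative cells of lymphoma 2676. Igkv8-19 read 4.77, 4.35 and 6.39 in untreated BCR-negative cells, against 4.71, 4.56 and 4.46 in untreated BCR-positive cells. The levels with CHIR99021 were 4.86, 4.76 and 6.29 in BCR-negative cells, against 4.57, 4.62 and 4.57 in BCR-positive cells. Its 6 BCR-positive arrays spanned 4.46 to 4.71, and both BCR-negative arrays of lymphoma 2676 stood above all the others.

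Igkv6-20 read 5.005, 4.55 and 6.00 in untreated BCR-negative cells, against 4.75, 5.09 and 4.38 in untreated BCR-positive cells. CHIR99021 cultures read 4.91, 4.89 and 6.09 in BCR-negative cells, against 4.52, 5.31 and 4.83 in BCR-positive cells. Its highest values were again the BCR-negative arrays of lymphoma 2676, while in lymphoma 2646 the BCR-positive arrays were the higher ones.

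Igkv8-30 read 4.61, 4.37 and 5.71 in untreated BCR-negative cells, against 4.30, 4.01 and 4.42 in untreated BCR-positive cells. In CHIR99021 cultures the values were 4.55, 4.09 and 6.06 in BCR-negative cells, against 4.32, 4.38 and 4.70 in BCR-positive cells. It was the 1 kappa member that was higher in BCR-negative cells of all 3 untreated cultures. Kappa variable segments form families of similar sequence, numbered before the hyphen, so a probe set named for 1 segment may also take signal from its relatives. Igkv8-19 and Igkv8-30 belong to the same family.

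**Figure D2:**
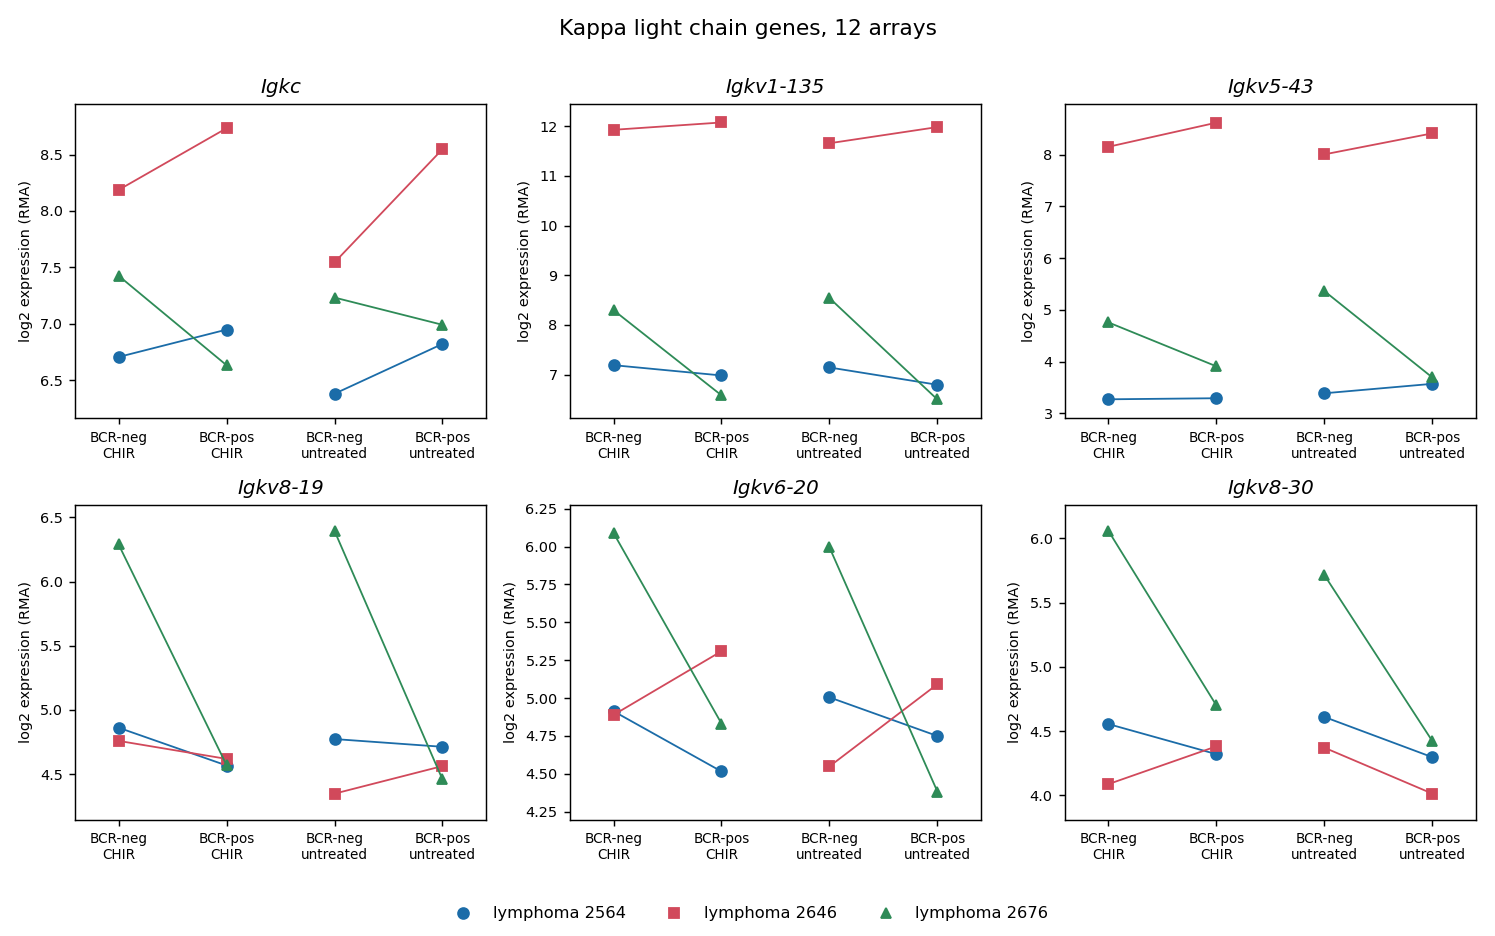
Log2 expression of Igkc and 5 kappa variable segments on each of the 12 arrays, with a line joining the BCR-negative and BCR-positive cells of 1 culture. The lines of lymphoma 2676 slope down to the BCR-positive cells in every panel (Igkv8-19 untreated, 6.39 against 4.46), whereas lymphoma 2646 holds the high levels of Igkv1-135 and Igkv5-43 in both populations.

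Within lymphoma 2676, all 6 kappa members were higher in BCR-negative cells in the untreated culture, where the median of their log2 differences was 1.64, and all 6 in the CHIR99021 culture, where it was 1.31. Over all 18820 genes, 50.7% and 47% were higher in the same 2 pairs of arrays (46.8% and 51.4% in lymphoma 2646, 47.5% and 57.6% in lymphoma 2564). The untreated differences there were 2.04 for Igkv1-135 (4.12-fold), 1.94 for Igkv8-19, 1.67 for Igkv5-43, 1.61 for Igkv6-20, 1.29 for Igkv8-30 and 0.24 for Igkc. With CHIR99021 they were 1.72, 1.72, 0.85, 1.26, 1.36 and 0.79 in the same order. Each of the 5 variable segments differed more than the probe set of the constant gene in lymphoma 2676 in each culture. The BCR-positive levels of Igkv8-19, Igkv5-43, Igkv6-20 and Igkv8-30 there, 3.69 to 4.83, lie among those of the T cell markers (3.60 to 5.18). So does the treated BCR-negative level of Igkv5-43, 4.76. These levels may not be above background, so the sizes of the differences that use them describe the signals only.

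Lymphoma 2646 ran the other way. There 5 of the 6 kappa members were lower in BCR-negative cells in each culture, with a median log2 difference of -0.37 untreated and -0.36 with CHIR99021. The exceptions were Igkv8-30 in the untreated culture (0.36) and Igkv8-19 in the CHIR99021 culture (0.14). In lymphoma 2564, 4 of the 6 were higher and 2 lower in each culture, and no difference exceeded 0.44 in size. The counts in lymphomas 2646 and 2676 were the same after subtraction of array medians and after cyclic loess normalization. In the untreated culture of lymphoma 2564 they became 3 and 3 with array medians subtracted. Several segments may not be above background in lymphomas 2564 and 2646, so their signs there describe the signals only.

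Means over lymphomas therefore rested on lymphoma 2676. In untreated cultures the mean log2 difference by BCR status was 0.69 ± 0.418 for Igkv1-135, 0.59 ± 0.390 for Igkv8-19, 0.36 ± 0.359 for Igkv5-43, 0.44 ± 0.376 for Igkv6-20 and 0.65 ± 0.276 for Igkv8-30. Without lymphoma 2676 these means were 0.01, -0.08, -0.29, -0.14 and 0.34. With CHIR99021 the 5 means lay between 0.12 and 0.72, and without lymphoma 2676 between -0.24 and 0.22. By treatment the variable segments had mean differences of -0.19 to 0.13 in BCR-negative cells and 0.01 to 0.22 in BCR-positive cells. Each was no larger than its pooled error. In BCR-positive cells Igkv1-135 and Igkv8-30 were higher with CHIR99021 in all 3 lymphomas, and the other segments had mixed signs. In BCR-negative cells all 5 had mixed signs.

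The arrays measured 7 further kappa variable segments through a single symbol, namely Igkv1-117, Igkv10-96, Igkv19-93, Igkv4-55, Igkv4-91, Igkv6-23 and Igkv9-120. In lymphoma 2676, 5 of the 7 were higher in BCR-negative cells in each culture, with medians of 0.12 untreated and 0.53 with CHIR99021. In lymphoma 2646 it was 1 of 7 in each culture (medians -0.27 and -0.30), or 0 of 7 with CHIR99021 once array medians were subtracted, and in lymphoma 2564 it was 1 untreated and 2 with CHIR99021 (medians -0.17 and -0.03). None of the 7 passed the limma test in any comparison, and the smallest adjusted p among them was 0.0891, for Igkv10-96 in untreated cultures (-0.90 ± 0.268). Lymphomas 2646 and 2676 had high segments of their own: besides Igkv1-135 and Igkv5-43, Igkv4-91 stood out in lymphoma 2646 (2.20 above the next lymphoma on the mean of 4 arrays) and Igkv9-120 in lymphoma 2676 (1.91 above). In lymphoma 2676 Igkv8-30 and Igkv8-19 followed at 0.78 and 0.70. In lymphoma 2564 no segment exceeded both other lymphomas, and the nearest was Igkv6-23 at -0.18.

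**Figure D3:**
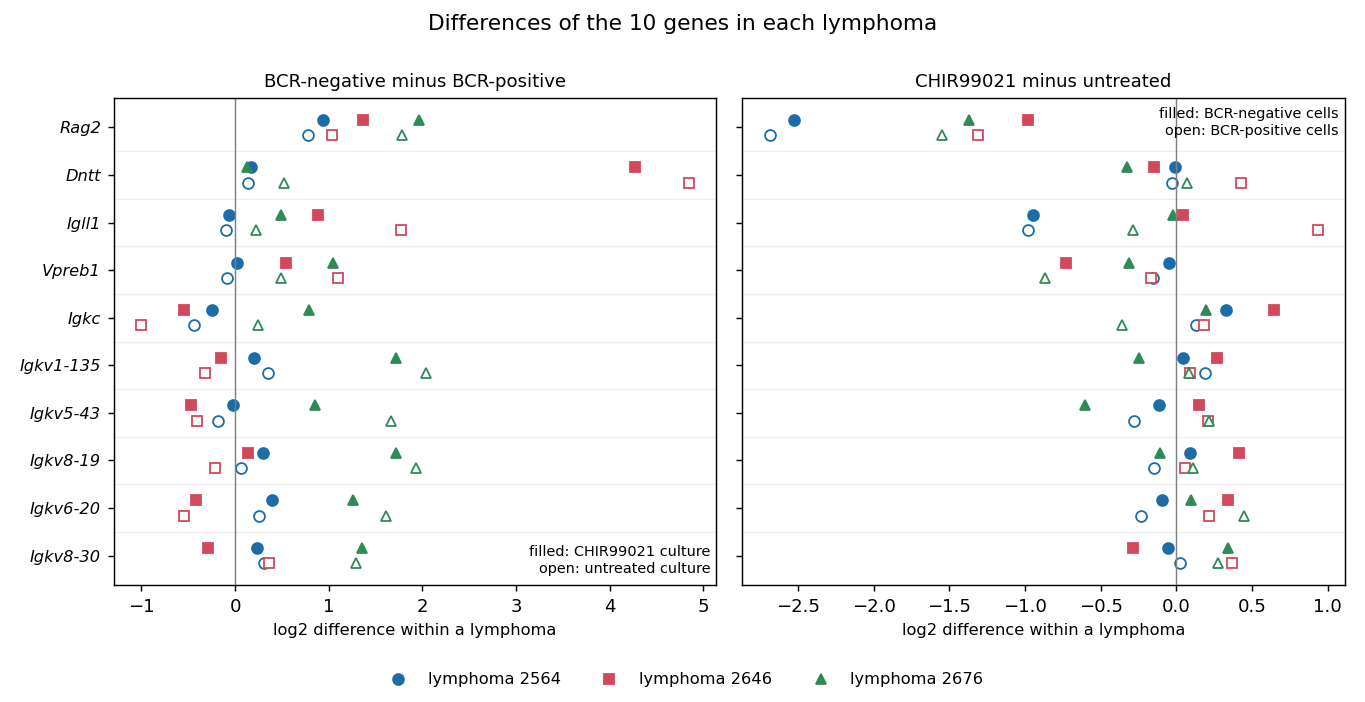
Log2 differences of the 10 genes within each lymphoma, by BCR status on the left (filled, CHIR99021 cultures; open, untreated cultures) and by treatment on the right (filled, BCR-negative cells; open, BCR-positive cells). Rag2 lies right of 0 in every pair on the left and left of 0 in every pair on the right, Dntt is set apart by lymphoma 2646 (4.85 and 4.27), and the kappa segments by lymphoma 2676.

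Counted over all 10 genes, 3 (Rag2, Dntt and Igkv8-30) were higher in BCR-negative cells of all 3 untreated cultures and none was lower in all 3, where 18% and 21.8% of all genes were. In CHIR99021 cultures 4 were higher in all 3 (Rag2, Dntt, Vpreb1 and Igkv8-19) and none lower, against 17.8% and 13.9% of all genes. The members' median log2 difference was 0.61 untreated and 0.49 with CHIR99021. By treatment, 1 was higher and 3 lower in all 3 lymphomas in BCR-negative cells (background 21.2% and 16%), and 2 were higher and 2 lower in BCR-positive cells (18.6% and 16.8%). For the interaction, 2 were higher in all 3 and none lower (16.4% and 12%). With array medians subtracted, 1 gene in place of 3 was lower with CHIR99021 in BCR-negative cells of all 3 lymphomas, and the other counts were the same. Since the genes were chosen on these values, the counts describe them only.

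With the call rule of an adjusted p under 0.05 in limma, no member was called by BCR status in untreated cultures, where 1.91% of all genes were called higher and 2.3% lower (4.2% in either direction). None was called in CHIR99021 cultures (0.0106% higher, 0.00531% lower, 0.0159% in all), by treatment in BCR-positive cells (0.00531% higher, 0.0691% lower, 0.0744% in all) or for the interaction, for which 0% of genes were called and 990 had an unadjusted p under 0.05. In BCR-negative cells 1 member, Rag2, was called lower with CHIR99021, beside 1.76% of all genes called lower and 1.91% called higher (3.68% in all). Nothing is read from that call, because the choice of the genes used these arrays.

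Most of the other recombination genes did not pass by BCR status. Of 17 further genes of V(D)J recombination, 1 rose, 1 fell and 15 did not pass in untreated cultures (1.91% and 2.3% of all genes were called in those directions), with a median log2 difference of -0.13 against 0.00 over all genes. Xrcc6, which encodes the Ku70 end-binding protein, rose in BCR-negative cells by 0.59 ± 0.118 (limma adjusted p = 0.0312, called in 12 of 23 alternatives), and Nbn, part of the break-sensing MRN complex, fell by 0.34 ± 0.0785 (limma adjusted p = 0.0452, called in 5 of 23). Polm, a polymerase of light chain joining related to Dntt, had a difference of 0.72 ± 0.242 that did not pass (limma adjusted p = 0.125). In CHIR99021 cultures none of the 17 passed, and Xrcc6 (0.36) and Polm (0.60) had the smallest p-values.

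By treatment, Nbn rose in BCR-negative cells by 0.41 (limma adjusted p = 0.0279, called in 13 of 23 alternatives) and the other 16 did not pass. In BCR-positive cells none passed. Nhej1, a factor of end joining, had a difference of -0.29 (limma adjusted p = 0.152), and Lig4, the ligase that seals the joins, had -0.73 (limma adjusted p = 0.3). The comparison by BCR status in untreated cultures and the one by treatment in BCR-negative cells share the 3 untreated BCR-negative arrays, so their opposite signs for a gene such as Nbn are not separate evidence.

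Among 11 further genes of the pre-B cell stage, Sox4, a transcription factor of early B cells, rose in untreated BCR-negative cells by 0.90 ± 0.155 (limma adjusted p = 0.0223, called in 15 of 23 alternatives). The other 10 did not pass there, and Bst1, a surface antigen of early B cells, came nearest with 1.43 ± 0.382 (limma adjusted p = 0.065). In CHIR99021 cultures none of the 11 passed, with 0.76 for Sox4 (limma adjusted p = 0.385) and 1.16 for Bst1 (limma adjusted p = 0.508). Sox4 was higher in BCR-negative cells of every lymphoma with CHIR99021 (0.81, 0.88 and 0.59), and Bst1 ranged from 0.36 in lymphoma 2564 to 2.20 in lymphoma 2676. By treatment none of the 11 passed in either population.

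Of 30 regulators of the Rag and light chain loci, 4 rose in untreated BCR-negative cells, none fell and 26 did not pass. Of all genes, 1.91% were called higher and 2.3% lower. Of the 30 differences 24 were positive, and their median was 0.13, against -0.002 over all genes. The sign counts of the regulators were not tested. Runx1 rose by 0.48 ± 0.112 (limma adjusted p = 0.0471), the E protein gene Tcf12 by 0.44 ± 0.0844 (0.0292), the forkhead factor Foxp1 by 0.35 ± 0.0694 (0.0312) and the NF-kappaB subunit Rel by 0.34 ± 0.0770 (0.0435). The call of Runx1 was made in 4 of 23 alternatives, that of Rel in 9, of Foxp1 in 13 and of Tcf12 in 14, and none of the 4 was made without lymphoma as a block or with it as a random block. Foxo1, a known activator of the Rag genes, had a difference of 0.51 ± 0.131 that missed the threshold (limma adjusted p = 0.0581), and so did Irf4, a factor of light chain activation, with 0.50 ± 0.132 (limma adjusted p = 0.0643). In CHIR99021 cultures none of the 30 passed, with 0.29 for Foxp1 and 0.48 for Irf4 at the smallest p-values (limma adjusted p = 0.424 and 0.47).

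With CHIR99021, 6 of the 30 regulators fell in BCR-negative cells, none rose and 24 did not pass, where 1.76% of all genes were called lower and 1.91% higher. The median was -0.27 with 3 positive, against a median of 0.010 over all genes. Brwd1, a chromatin reader known to open the kappa joining segments in pre-B cells, fell by 0.70 ± 0.0930 (limma adjusted p = 0.0087). Ikzf3 fell by 0.65 ± 0.121 (0.0252), Runx1 by 0.59 ± 0.112 (0.0258), Foxp1 by 0.41 ± 0.0694 (0.0172) and Rel by 0.39 ± 0.0770 (0.0296). Ets1 was the sixth, with a fall of 0.38 ± 0.0759 (0.0319). None of the 6 was called without lymphoma as a block or with it as a random block, while 18 of the 23 alternatives called Brwd1, 15 each Foxp1 and Ikzf3, and 13 each Runx1 and Rel. In BCR-positive cells none passed (median -0.25, 6 positive, against a median of 0.003 over all genes), and Brwd1 had -0.56 (limma adjusted p = 0.0751) and Foxp1 -0.35 (limma adjusted p = 0.105). No regulator passed for the interaction.

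**Figure D4:**
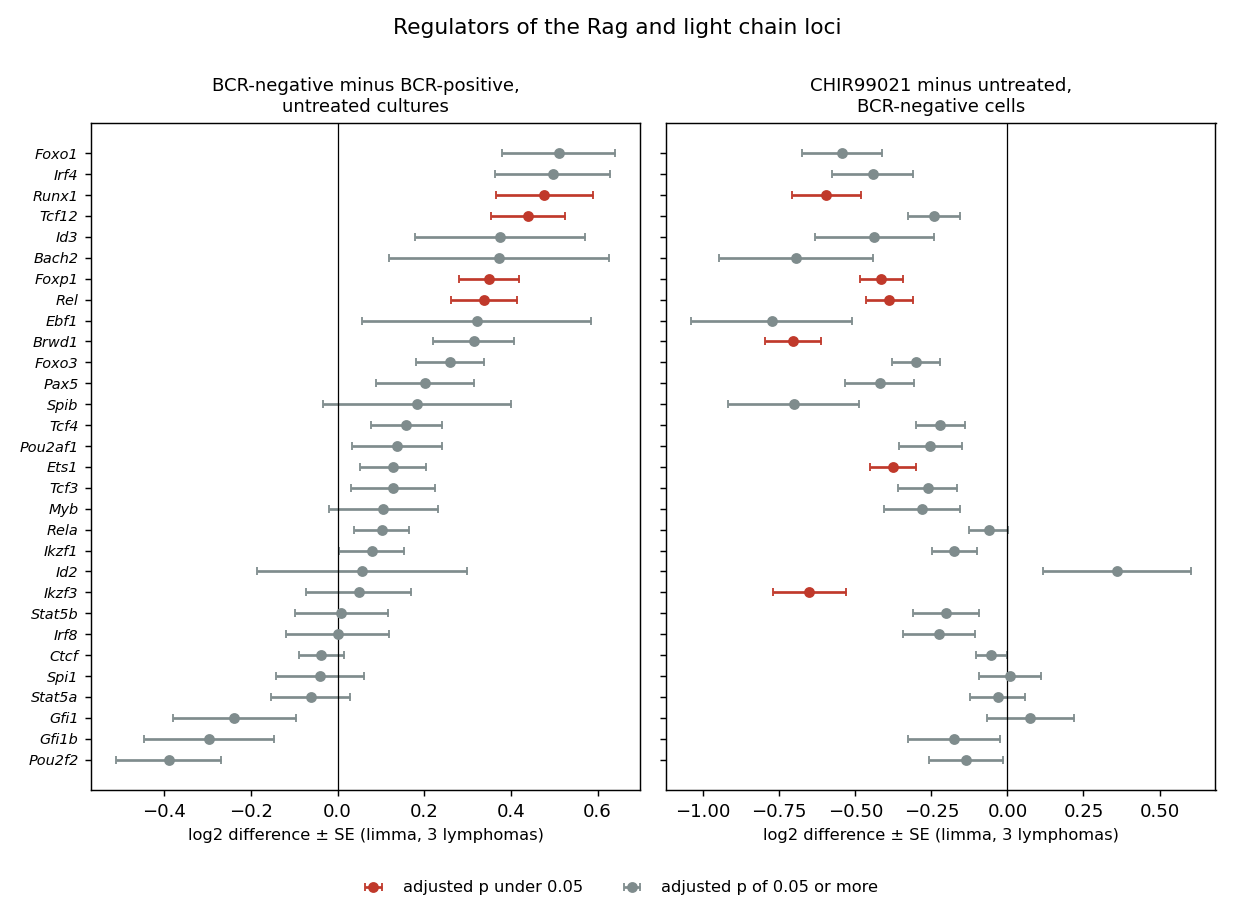
Log2 difference with its SE from limma for 30 regulators of the Rag and light chain loci, by BCR status in untreated cultures (left) and by CHIR99021 in BCR-negative cells (right), ordered by the left panel. Red points had an adjusted p under 0.05, 4 on the left and 6 on the right. Both panels use the same 3 untreated BCR-negative arrays.

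Over all 103 listed genes other than the members, 10 were called by BCR status in untreated cultures (7 higher, 3 lower, beside 4.2% of all genes), 1 in CHIR99021 cultures (Ighv1-72, beside 0.0159%), 9 by CHIR99021 in BCR-negative cells (2 higher, 7 lower, beside 3.68%), and none in BCR-positive cells or for the interaction (28 and 8 at an unadjusted p under 0.05). Among the calls outside the lists above, Prdm1, a plasma cell factor, rose in untreated BCR-negative cells by 1.62 ± 0.293 (limma adjusted p = 0.0248, called in 14 of 23 alternatives), and Ighg3 fell by 0.25 ± 0.0585 (0.0464, called in 4). Prdm1 read 4.14 to 6.75 over all arrays. Its lowest levels lie among those of the T cell markers (3.60 to 5.18) and may not be above background. Cd79b, a signalling chain of the BCR, fell with CHIR99021 in BCR-negative cells by 0.33 (limma adjusted p = 0.024, called in 12 of 23). Each of the 10 genes called in untreated cultures differed in the direction of its call in all 3 lymphomas. The calls were fewer in the following fits, which also had fewer arrays. Without lymphoma 2646 there were 0 calls and without lymphoma 2676 there was 1. Without a single array of lymphoma 2646 there were 1 (BCR-negative untreated), 1 (BCR-positive untreated), 3 (BCR-negative CHIR99021) or 6 (BCR-positive CHIR99021). Without the BCR-negative or the BCR-positive untreated array of lymphoma 2676 there were 5 and 0. The 9 calls by CHIR99021 became 2, 0 and 5 without lymphomas 2564, 2646 and 2676, and 1, 0 and 1 without the CHIR99021 array of lymphoma 2564, the CHIR99021 array of lymphoma 2646 and the untreated array of lymphoma 2646, all of BCR-negative cells.

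Of 6 measured B cell markers, 5 read between 8.34 and 11.77 on all arrays, and the sixth, Ms4a1, which encodes CD20, read 3.03 to 3.92, no higher than the T cell markers. The summed linear signal of the 6 was 5908 to 8578 in BCR-negative cells with CHIR99021, 5876 to 8356 in BCR-positive cells with CHIR99021, 7913 to 10171 in untreated BCR-negative cells and 7409 to 9528 in untreated BCR-positive cells. The 6 T cell markers summed to 112 to 120, 113 to 121, 113 to 121 and 112 to 118 in the same order. The 6 plasma cell markers summed to 1753 to 2450, 1471 to 2191, 2161 to 2732 and 1773 to 2235, carried by Irf4, Xbp1 and Sdc1, while Jchain read 3.56 to 3.83. The 5 stroma markers summed to 2200 to 3553, 1993 to 3552, 2502 to 3466 and 2179 to 3450. That sum was carried by Vim (10.87 to 11.75), and the collagen genes and Pdgfrb read 3.96 to 5.63. Of the 5 NK cell markers, 1 moved with Dntt in untreated cultures: the log2 difference of Klrb1c by BCR status was 1.48 in lymphoma 2646, beside 0.28 in lymphoma 2564 and -0.09 in lymphoma 2676. The other 4 had differences of 0.15 (Ncr1), 0.0025 (Nkg7), 0.05 (Gzma) and -0.27 (Prf1) in lymphoma 2646, and they read between 3.405 and 4.24 on all arrays. With CHIR99021 the Klrb1c difference was -0.003, 0.97 and 0.30 in lymphomas 2564, 2646 and 2676. The other 4 then lay between -0.04 and 0.21 in lymphoma 2646. The NK sums were 80.7 to 112 in untreated BCR-negative cells and 75.4 to 83.3 in untreated BCR-positive cells.

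The 7 myeloid markers summed to 142 to 389 in BCR-negative cells with CHIR99021, 123 to 506 in BCR-positive cells with CHIR99021, 143 to 472 in untreated BCR-negative cells and 130 to 290 in untreated BCR-positive cells. Lyz2, a myeloid marker, rose with CHIR99021 in BCR-negative cells by 0.46 (limma adjusted p = 0.0388, called in 7 of 22 alternatives), at levels of 3.52 to 4.28 over all arrays. The other 6 did not pass there. Itgam, at 4.68 to 8.03, had a difference of -0.59 (limma adjusted p = 0.261) and Csf1r, at 4.52 to 8.53, had 0.36 (limma adjusted p = 0.478). The part of myeloid cells in the calls there was not tested. The heavy chain constant gene Ighm stood apart in lymphoma 2646, with 7.31 in untreated BCR-negative cells, against 7.60 in their BCR-positive partners. Under CHIR99021 it read 5.16 in BCR-negative cells and 8.14 in BCR-positive cells of that lymphoma, and between 4.14 and 4.53 on the 8 arrays of the other lymphomas.

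Likeness to 3 members was measured by Pearson's r across the 12 arrays after subtraction of each lymphoma's mean, as a description, since the arrays share lymphomas and cultures. The genes most like Rag2 were Rmnd5a (r = 0.984), 4930523C07Rik (0.982) and Ccng2 (0.981), a cyclin gene. Ccng2 had mean log2 differences of 0.66 and 0.72 by BCR status, untreated and with CHIR99021, and of -1.03 and -1.08 by CHIR99021 in BCR-negative and BCR-positive cells. The genes most like Dntt were Atp8a1 (0.931), Abca9 (0.928) and Klrb1c (0.924), and those most like Igkc were Igkv4-55 (0.970), Nudt12 (0.942) and Rhbg (0.924).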

How the data were processed

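Gene expression was measured in sorted B lymphoma cells on 12 Affymetrix Mouse Gene 1.1 ST arrays, 3 lymphomas in each of 4 groups taken from the sample titles. The authors deposited log2 values for probe sets. The submitters' processing notes name RMA and Affymetrix Power Tools, without versions. By its design, RMA gives all arrays the same distribution of probe values before summarising, so an overall shift between groups is removed. The table held 35556 probe sets, of which the platform annotation listed 23099, 21218 with 1 symbol and 1881 with several, and left 12457 unnamed. Of those with 1 symbol, 21185 matched RefSeq (GRCm38.p6). The probe set with the highest mean stood for a gene with several (1386 genes), which left 18820 genes. With arrays, their number limits the precision.

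A linear model with group and lymphoma over all 12 arrays was fitted with limma 3.58.1 in R 4.3.3, with eBayes and Benjamini-Hochberg adjustment over all genes (6 residual degrees of freedom before moderation). The labels call the lymphomas independent, and the 2 sorted populations of each grew in the same culture, so lymphoma was the block. Deviations from group means correlated at r of 0.813 to 0.907 between arrays of 1 lymphoma (18 pairs) and at -0.625 to -0.248 between lymphomas (48 pairs). The deviations of the 3 arrays of a group cancel out, so negative values between lymphomas are built into the calculation. The 5 comparisons were BCR loss with and without CHIR99021, CHIR99021 in each population, and the interaction. The fit was tested on simulated data. The 10 members and the gene lists were chosen with earlier results of these data known, so members carry no p-value. The genes named are the members, Ighv1-72 and Ighm as checks, up to 5 called genes per list or the 2 with the smallest p, segments highest in 1 lymphoma, and the 3 genes most like Rag2, Dntt and Igkc. Ets1 was named beyond that rule, after its value was seen. Alternatives were other treatments of the block, fits on the compared arrays alone, a filter on genes below the 30th percentile of mean level, the mean of probe sets, 2 other scalings, a trended robust fit, and leaving out lymphomas or arrays. Promoter sequences are RefSeq's.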

Additional observations from a re-analysis of the deposited data

Results flagged for a closer look

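Several genes moved in opposite directions by BCR status in different lymphomas, with both pairs of arrays of each lymphoma on the same side. The values below are the mean of the untreated and the CHIR99021 difference in 1 lymphoma minus the same mean in another, and these differences between lymphomas were not tested. The Igll1 difference by BCR status was greater in lymphoma 2646 than in lymphoma 2564 by 1.41 and greater in lymphoma 2676 than in lymphoma 2564 by 0.43. The Igkc difference was greater in lymphoma 2676 than in lymphoma 2564 by 0.86 and than in lymphoma 2646 by 1.29. For Igkv1-135, lymphoma 2646 minus lymphoma 2564 was -0.51 and lymphoma 2676 minus lymphoma 2646 was 2.12. For Igkv5-43, lymphoma 2676 exceeded lymphoma 2564 by 1.36 and lymphoma 2646 by 1.70. The differences in lymphoma 2564, untreated and with CHIR99021, were small for Igll1 (-0.09 and -0.06) and for Igkv5-43 (-0.18 and -0.02). Igkv5-43 read 3.27 to 3.57 in that lymphoma, below the T cell markers (3.60 to 5.18), and may not be above background, so its signs there describe the signals only. For Igkv6-20, lymphoma 2646 minus lymphoma 2564 was -0.81 and lymphoma 2676 minus lymphoma 2646 was 1.92.

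The same opposition appeared by treatment for 3 genes, again untested. The Igll1 difference between CHIR99021 and untreated cells was greater in lymphoma 2646 than in lymphoma 2564 by 1.45, and lymphoma 2676 minus lymphoma 2646 was -0.64. Neither opposition of Igll1 was kept under cyclic loess, where 1 difference in lymphoma 2646 was -0.01, and the second was not kept with array medians subtracted, where 1 difference in lymphoma 2676 was 0.05. Those of Igkv5-43 and Igkv6-20 below, and those by BCR status above, were kept under both. For Igkv5-43, lymphoma 2646 exceeded lymphoma 2564 by 0.37. For Igkv6-20, lymphomas 2646 and 2676 exceeded lymphoma 2564 by 0.44 and 0.43. In lymphoma 2564 Igkv5-43 (3.27 to 3.57) and Igkv6-20 (4.52 to 5.005) may not be above background, so these oppositions describe the signals only.

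A signal also appeared outside the genes with a single symbol. A probe set annotated with the lambda symbols Iglv1, Iglc1 and Iglv2 was higher in BCR-negative cells in all 6 pairs of arrays, by 0.63 on average. A second probe set with the same symbols, described below, was not higher in every pair. With CHIR99021 that second set differed by -0.01 in lymphoma 2564 and -0.07 in lymphoma 2676, and it was higher in the other pairs. The values that follow are those of the first set. In untreated cultures of lymphomas 2564, 2646 and 2676 it read 6.32, 9.93 and 6.24 in BCR-negative cells, against 5.98, 8.11 and 5.77 in BCR-positive cells. The values with CHIR99021 were 5.74, 8.80 and 5.87 in BCR-negative cells, against 5.65, 7.90 and 5.69 in BCR-positive cells. The gap was widest in lymphoma 2646, the lymphoma in which Dntt was high in BCR-negative cells.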

How the results depend on the processing

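Without the replicate block, and with lymphoma as a random replicate block, the 10 listed genes called by BCR status in untreated cultures became 0 (10 at an unadjusted p under 0.05) and 1, the 9 called by CHIR99021 in BCR-negative cells became 0 and 0 (9 and 23 unadjusted), and the 1 called in CHIR99021 cultures became 0 and 0. With only the arrays compared, the counts were 0 (27 unadjusted) in untreated cultures, 0 (36 unadjusted) by CHIR99021 in BCR-negative cells and 2 in BCR-positive cells, where the full fit called 0 and the trended robust fit 1. The single call in CHIR99021 cultures was 0 with dim genes left out, with array medians subtracted, with cyclic loess and with the trended robust fit. Leaving out a lymphoma or an array gave 0 to 12 calls in untreated cultures, 0 to 1 in CHIR99021 cultures, 0 to 1 by CHIR99021 in BCR-positive cells, 0 to 10 in BCR-negative cells, and 0 for the interaction. The cause of these changes was not tested, beyond the fewer arrays of some fits. The interaction had no fit restricted to its arrays, since it uses all 12. Of 1140 recomputed differences of the 10 members, 1051 moved by less than the spread between lymphomas, 89 moved by more, and 108 changed sign, 17 of these without lymphoma 2676. Under the 2 other scalings 4 signs changed, of Igkc and Igkv1-135 means close to 0. Rag2 was called lower with CHIR99021 in BCR-negative cells in 9 of 23 alternatives.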

Other observations

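Lambda and further kappa transcripts were also measured by probe sets that carry several symbols, which name no single gene. A second lambda probe set, annotated with Iglc1, Iglv2 and Iglv1, read 5.37, 8.81 and 4.96 in untreated BCR-negative cells of lymphomas 2564, 2646 and 2676, against 5.14, 7.58 and 4.94 in their BCR-positive partners. The values with CHIR99021 were 4.67, 7.63 and 4.75 in BCR-negative cells, against 4.69, 7.31 and 4.81 in BCR-positive cells. Both lambda probe sets were highest in lymphoma 2646.

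Among 7 kappa probe sets with several symbols, the one shared by Igkv6-14 and Igkv6-15 had log2 differences by BCR status of 0.45, 0.02 and 1.74 in untreated cultures of lymphomas 2564, 2646 and 2676. With CHIR99021 they were 0.15, -0.19 and 1.14. The probe set shared by Igkv10-96 and the joining segment Igkj1 had -0.62, -0.58 and -0.20 untreated, and -0.16, -0.30 and 0.20 with CHIR99021. In the untreated culture of lymphoma 2676 the other 5 read 1.46 (the set of Igk-V21, Igkv9-120, Map3k20 and Igkv1-117), 0.26 (a set of Igkv4 segments and Igkc) and 0.16, 0.22 and 0.75 (3 further sets of Igkv4 segments), so 2 of the 7 lay within the range of the 5 kappa variable members, 1.29 to 2.04, and 5 below it.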
